A study of Mus musculus with 6 samples.

Results

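The WNT ligands, their receptors and the secreted proteins that modulate them were examined gene by gene in mouse gastruloids, aggregates of embryonic stem cells (ESCs) that elongate and form the germ layers in culture. The members were chosen by name and not by their values, though with earlier results of these data known. They comprise 52 of the 35565 genes listed: 19 WNT ligands, 10 frizzled receptors, 5 co-receptors, 4 R-spondins, 3 Lgr receptors, 5 secreted frizzled-related proteins (*Frzb* among them), 4 Dickkopf genes, and *Notum* with *Wif1*. Bulk RNA sequencing compared 3 libraries of Control (NT) gastruloids with 3 libraries of *T-UCstem1* KD-1 gastruloids on day 5, which asks what silencing of the lncRNA *T-UCstem1* does to gene expression. Control (NT) cells carry a non-targeting construct according to the study, while the labels call their genotype WT, and KD-1 is one knockdown clone. Both lines derive from TBV2 129/SvP ESCs, and all gastruloids received a pulse of 3 µM CHIR99021, a GSK3 inhibitor that activates WNT signalling. With a single line behind each group, silencing and any other difference between the lines cannot be told apart. The level of *T-UCstem1* is not analysed here.

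WNT proteins are lipid-modified signals that travel short distances between cells. In the canonical branch a WNT bridges a frizzled receptor to the co-receptor LRP5 or LRP6, which stabilises β-catenin, whereas ROR1, ROR2 and RYK serve branches that act on cell polarity and movement. R-spondins bind Lgr receptors and keep frizzled and LRP proteins at the cell surface, while SFRP, WIF1 and NOTUM proteins act against the WNT itself and Dickkopf proteins against LRP5 and LRP6. In the embryo these signals pattern the posterior end, from which axial and paraxial tissues form.

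Library totals ranged from 20982249 to 56674906 counts in Control (NT) and from 41180012 to 85561026 in KD-1. Libraries are called shallowest, middle and deepest by their totals within a group, and values per library are listed in that order, Control (NT) first. Levels are CPM (counts scaled by library size) with TMM normalization, and a count of 0 allows up to 0.143 CPM in the shallowest library and 0.0351 in the deepest, taking 3 counts as the limit, for counting error only. Nothing in the sources used here says whether libraries of a group came from separate cultures, so p-values measure the spread between these libraries. A marker list of paraxial mesoderm and somite had 10 of its 11 genes tested, all 10 called lower in KD-1, with a summed level of 569 to 652 CPM in Control (NT) and 46.9 to 47.9 in KD-1, where *Msgn1* was at 0 in every library. Beside the calls of these lists, 19.7% of all genes tested were called higher in KD-1 and 18.1% lower. Naive pluripotency genes (7 of 9 called higher) summed to 703 to 752 against 2039 to 2105 CPM. Neural genes (6 of 7 tested called higher, 9 listed) summed to 35.9 to 41.5 against 158 to 160 CPM. Endoderm genes (3 called higher and 1 lower of 5 tested, 7 listed) summed to 156 to 189 against 403 to 405 CPM. Their log2 fold changes ran from -2.57 to 1.89, so this sum, to which abundant genes add most, does not give the direction of each gene. Genes listed as feeder fibroblast markers, of which 4 of 5 tested were called lower (8 listed), summed to 34.0 to 38.8 against 0.863 to 1.05 CPM. *Lum* and *Postn* were at 0 in every KD-1 library, while the 1 tested gene not called had a log2 fold change of 1.59. The study's methods describe, for the colony assay, pre-plating to remove feeder cells ahead of low-density ESC culture. Whether reads of the listed genes came from feeder cells or from cells of the gastruloids was not tested. The part that these cell types play in the values below was not tested, and in bulk RNA fewer cells of a type and less RNA per cell cannot be told apart.

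Of the 52 members, 39 had enough counts to be tested, and 29 of these were called changed at an adjusted p under 0.05 and a fold change over 1.5 (edgeR's quasi-likelihood test, Benjamini-Hochberg adjustment over 15110 genes). Called members made up 74.4% of those tested, beside 37.7% of all genes tested. In KD-1, 16 were called higher, where 19.7% of all genes were, and 13 lower, where 18.1% were. A pathway chosen by name is no random sample of genes, so these shares are a description. The median log2 fold change of KD-1 over Control (NT) was 0.46 for the tested members and -0.01 for all tested genes. Libraries of the 2 groups did not overlap for 36 of the 39 tested members, against 70.6% of all tested genes. The filter on low counts could be met through a single group, Control (NT) for *Wnt16* and KD-1 for *Wnt7a* and *Wnt9b*. Their calls and separate groups, counted here, rest in part on how they entered the test. Both directions occurred within the ligands (5 higher, 5 lower of 12 tested), the frizzled genes (4 and 3 of 10), the co-receptors (1 and 2 of 5) and the SFRP genes (3 and 1 of 4). Both tested R-spondins were lower. The Lgr, Dickkopf and *Notum* classes had 1 call each, *Lgr5*, *Dkk3* and *Notum*, all higher, which gives no direction for a class.

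**Figure D1:**
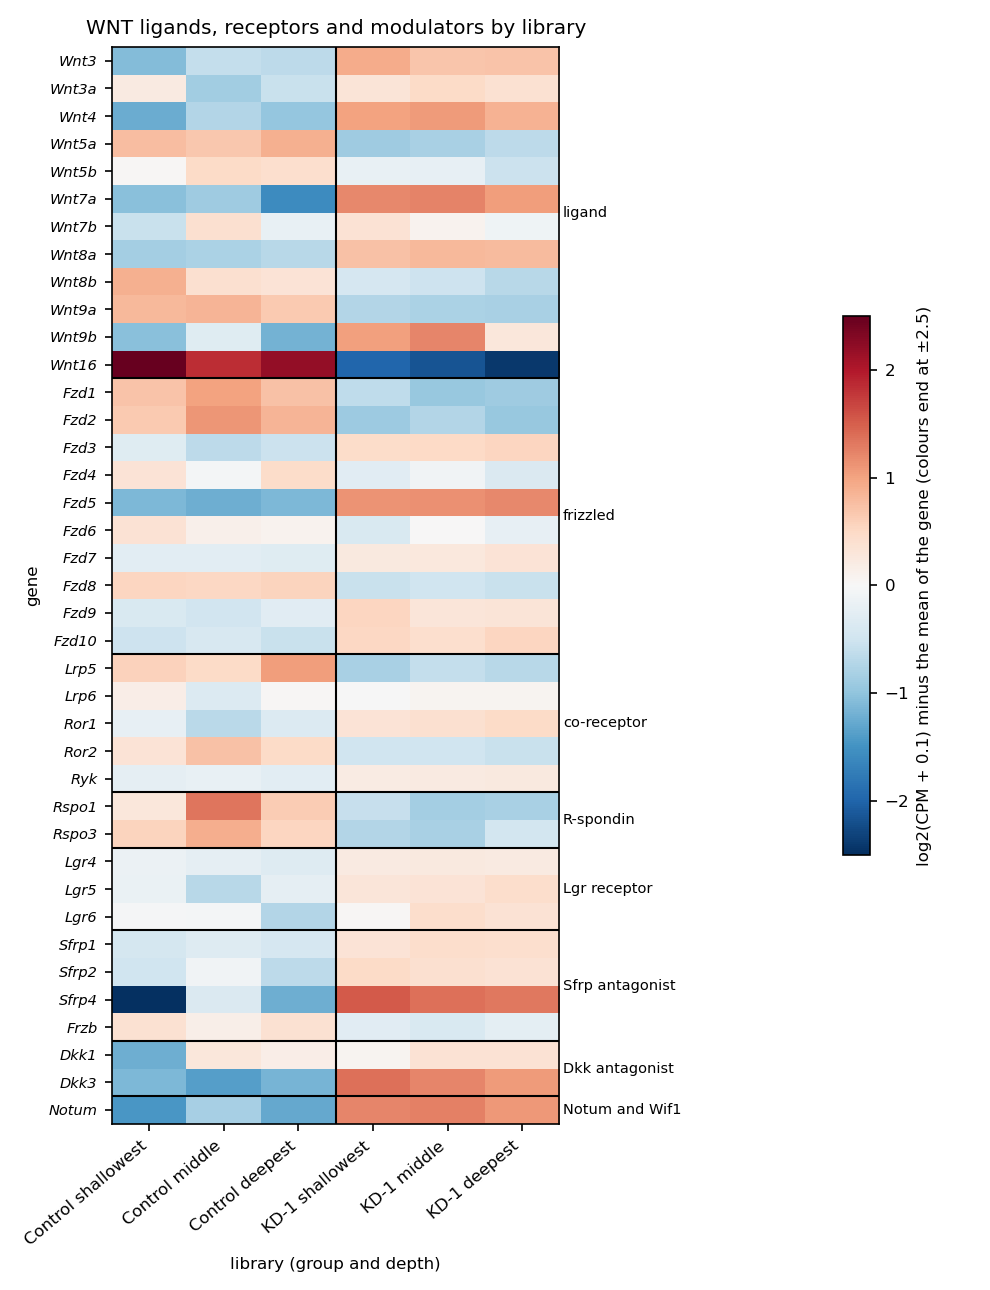
Level of the 39 tested members in each library, as log2(CPM + 0.1) minus the mean of the gene over the 6 libraries (red, above the mean; blue, below). Rows are genes by class, columns are libraries by group and depth, and within most rows the 3 libraries of a group share a colour, with *Wnt3a*, *Wnt7b*, *Fzd4*, *Fzd6*, *Lrp6* and *Dkk1* the mixed rows.

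Ligands were called in both directions. *Wnt16* showed the largest difference of any tested member: it had 5.35, 3.34 and 4.29 CPM in Control (NT) against 0.143, 0.115 and 0.0806 in KD-1. Its KD-1 libraries held 6, 5 and 7 reads, so it met the filter on low counts through Control (NT) alone. The log2 fold change was -5.30 (standard error (SE) 0.32, adjusted p = 2.2e-06, edgeR). *Wnt16* (ENSMUSG00000029671, GRCm39 chromosome 6, 22288221 to 22298521, plus strand) encodes a ligand known from bone biology. *Wnt5a*, the main non-canonical ligand of the elongating embryo, had 23.6, 21.9 and 25.6 CPM in Control (NT) against 7.42, 7.84 and 8.74 in KD-1. The log2 fold change of *Wnt5a* was -1.56 (SE 0.10, adjusted p = 2.9e-06, edgeR). No library of either group reached the range of the other for these 2 genes. Its relative *Wnt5b* was less affected, with 2.31, 3.16 and 3.05 CPM against 1.98, 1.93 and 1.53 and a log2 fold change of -0.67 (SE 0.20, adjusted p = 0.017, edgeR). The call for *Wnt5b* was lost without the deepest Control (NT) library (adjusted p = 0.056) and without the deepest KD-1 library (-0.54, adjusted p = 0.090). An exon of *Wnt5b* overlaps the protein-coding gene *Fbxl14* on the other strand, and whether counting used strand is not given in the sources used here.

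Also lower were *Wnt9a* and *Wnt8b*. *Wnt9a*, which takes part in joint and skeletal development, fell by 1.63 on the log2 scale (SE 0.17, adjusted p = 5.2e-05, edgeR), from 3.32 to 3.79 CPM across Control (NT) libraries to 1.14 to 1.19 in KD-1. *Wnt8b*, a forebrain ligand, had 1.21, 0.828 and 0.794 CPM in Control (NT) against 0.429, 0.391 and 0.334 in KD-1. That is a log2 fold change of -1.28 (SE 0.34, adjusted p = 0.010, edgeR), and without the deepest KD-1 library it was -1.16 with an adjusted p of 0.060, no longer called.

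More RNA in KD-1 was found for 5 ligands. *Wnt4*, which is needed for kidney and gonad formation, had 3.66, 5.23 and 4.42 CPM in Control (NT) against 17.7, 18.4 and 16.1 in KD-1, which gave a log2 fold change of 1.95 (SE 0.13, adjusted p = 4.2e-06, edgeR). It lies on chromosome 4 of GRCm39, from 137004373 to 137027037 on the plus strand. *Wnt8a*, a ligand of the primitive streak, had 3.28, 3.40 and 3.68 CPM against 9.99, 10.6 and 10.4, a log2 fold change of 1.57 (SE 0.11, adjusted p = 5.2e-06, edgeR). One of its exons overlaps *Nme5* on the other strand. *Wnt3*, a ligand that the mouse embryo needs to form a primitive streak, had 0.627, 0.917 and 0.884 CPM against 2.84, 2.41 and 2.44, a log2 fold change of 1.63 (SE 0.22, adjusted p = 2.5e-04, edgeR). For all 3 genes the highest Control (NT) library lay below the lowest KD-1 library.

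The other 2 rises began from a few reads, in genes that met the filter on low counts through KD-1 alone. *Wnt7a*, a ligand of the neural tube and limb ectoderm, had 2, 4 and 2 reads in Control (NT) against 35, 37 and 64 in KD-1, which gave the largest log2 fold change upwards among the 39 tested members, 3.37 with a 95% interval of 2.26 to 4.48. *Wnt9b*, a ligand of kidney and facial ectoderm, had 1, 5 and 2 reads against 22, 27 and 24, with a log2 fold change of 2.59 (SE 0.66, adjusted p = 0.0079, edgeR). Without the middle Control (NT) library, which held 5 of those reads, it was 3.44.

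*Wnt3a*, the ligand that sustains the progenitors of the posterior axis, had 1.06, 0.444 and 0.577 CPM in Control (NT) against 1.14, 1.29 and 1.20 in KD-1. The shallowest Control (NT) library came close to the KD-1 range and the other two stayed well under it. Its log2 fold change of 0.86 (SE 0.34, adjusted p = 0.054, edgeR) was not called, while without the shallowest Control (NT) library it was 1.22 (adjusted p = 0.0090, edgeR) and called higher. *Wnt7b* had overlapping groups, 0.675 to 1.39 CPM in Control (NT) and 0.955 to 1.36 in KD-1, and the 95% interval of its log2 fold change ran from -0.56 to 0.90. Without the shallowest Control (NT) library its log2 fold change was -0.0041.

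Pairs of neighbouring ligand genes did not all move alike. *Wnt3a* and *Wnt9a* face away from each other on chromosome 11, 15982 bp apart, and had log2 fold changes of 0.86 (not called) and -1.63. *Wnt9b* and *Wnt3* stand in the same arrangement elsewhere on chromosome 11, 24320 bp apart, and both were called higher, at 2.59 and 1.63. *Wnt6* and *Wnt10a* lie 5699 bp apart on chromosome 1, and neither reached the filter. *Wnt10b* and *Wnt1* on chromosome 15 overlap on opposite strands and were untested as well.

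Set side by side per kb of exon, the order of the ligands differed between the groups. In Control (NT), *Wnt5a* led with 2.95 ± 0.235 CPM per kb (SD, n = 3) and took 31.7% of the summed ligand level, and *Wnt8a* followed with 1.88 ± 0.112. *Wnt16*, *Wnt9a* and *Wnt4* came next at 0.992, 0.922 and 0.880 CPM per kb, with ranges that overlapped from one to the next. In KD-1, *Wnt8a* led with 5.64 ± 0.180 CPM per kb (44.4% of the ligand level), followed by *Wnt4* with 3.45 ± 0.236 (27.1%), while *Wnt5a* held 0.995 ± 0.0839 (7.84%). Each of these 3 KD-1 ranges was clear of the next. The summed ligand level per kb was 9.06 to 9.55 in Control (NT) and 12.4 to 13.1 in KD-1, although the sum of plain CPM overlapped (45.2 to 48.5 and 44.1 to 46.9), *Wnt8a* having 1835 bp of exon and *Wnt5a* 8035.

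**Figure D2:**
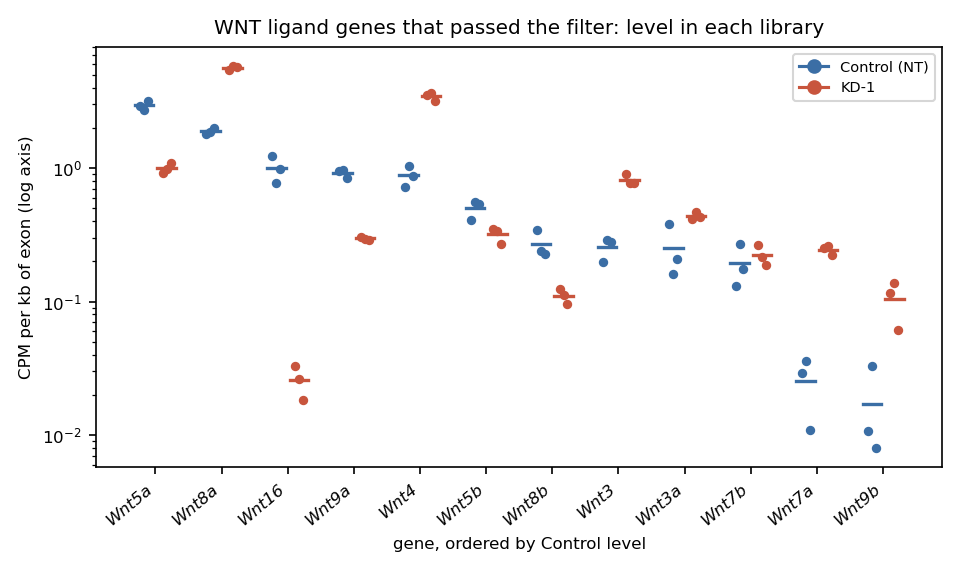
Level of the 12 tested WNT ligand genes in each library, in CPM per kb of exon on a log axis (points, libraries; bars, group means of 3). *Wnt5a* stands highest in Control (NT) and *Wnt8a* with *Wnt4* in KD-1, and *Wnt16* in KD-1 is at 0.0259 CPM per kb on average against 0.992 in Control (NT).

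All 10 frizzled genes, which encode the membrane receptors for WNT proteins, were tested, and their calls were 4 higher and 3 lower. *Fzd5*, a receptor of early endoderm and eye, had 8.39, 7.78 and 8.34 CPM in Control (NT) against 40.1, 40.6 and 42.4 in KD-1. Its log2 fold change of 2.33 (SE 0.07, adjusted p = 6.7e-08, edgeR) was the largest of the family. *Fzd2*, a mesenchymal receptor that also carries WNT5A signals, went the other way, with 35.4, 48.0 and 40.4 CPM against 11.8, 13.5 and 11.5 and a log2 fold change of -1.75 (SE 0.12, adjusted p = 4.6e-06, edgeR). The number of *Fzd5* reads per *Fzd2* read, a ratio picked after its values were seen, was 0.162 to 0.237 in Control (NT) and 3.01 to 3.68 in KD-1. *Fzd5* (ENSMUSG00000045005) lies on chromosome 1, from 64769717 to 64776934 on the minus strand of GRCm39. The 871 tested genes of chromosome 1 had a median log2 fold change of 0.49 and 40.2% of them were called higher, against -0.05 and 18.0% on the other autosomes. What this chromosome-wide difference contributes to *Fzd5* was not tested. Leaving out the members on chromosome 1, 15 were called higher and 13 lower of 36 tested.

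Among the other frizzled genes, *Fzd1* (10.7 to 13.2 CPM in Control (NT), 3.31 to 4.17 in KD-1) and *Fzd8* (13.3 to 13.6 against 6.21 to 6.46) were lower, by 1.67 and 1.09 on the log2 scale. *Fzd3*, a polarity receptor of axons, and *Fzd10* were higher by nearly equal log2 fold changes, 1.00 (SE 0.09) and 0.98 (SE 0.07). *Fzd3* had 77.1, 60.5 and 65.2 CPM against 131, 134 and 138, and *Fzd10* had 46.4, 50.2 and 44.7 against 94.6, 88.9 and 95.9. *Fzd9* was low throughout, 0.532 to 0.632 CPM against 0.988 to 1.19, and its call (0.85, adjusted p = 0.023, edgeR) was lost without any one of the KD-1 libraries. Without the shallowest, middle and deepest KD-1 library its adjusted p was 0.094, 0.063 and 0.072.

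The remaining frizzled genes passed the adjusted p threshold but not the fold. *Fzd7*, a receptor of pluripotent cells and mesendoderm that also lies on chromosome 1, had 101, 102 and 99.1 CPM in Control (NT) against 145, 146 and 154 in KD-1. The groups were well apart, but the 1.47-fold difference stood just under the threshold (adjusted p = 2.9e-05, edgeR). DESeq2 called *Fzd7* higher, as did edgeR without the shallowest KD-1 library (log2 fold change 0.59) or the middle one (0.59). *Fzd4*, the Norrin and WNT receptor of blood vessels, had 13.8, 10.5 and 15.0 CPM against 8.89, 10.2 and 8.39, so that its groups were separated by little, and a log2 fold change of -0.52 (SE 0.14). *Fzd6*, a polarity receptor of hair and skin, had 8.84 to 10.7 CPM against 6.37 to 8.30 and a log2 fold change of -0.38 (SE 0.13). *Fzd4* was called lower without the middle Control (NT) library (-0.67) or the middle KD-1 library (-0.59).

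Per kb of exon, *Fzd7* (17.2 ± 0.263 CPM per kb) and *Fzd10* (14.5 ± 0.860) led the receptors in Control (NT), and *Fzd2* (11.3 ± 1.73) came after them (SD, n = 3 each). In KD-1 *Fzd10* (28.7 ± 1.14) and *Fzd7* (25.3 ± 0.839) led, *Fzd3* (10.2 ± 0.252) and *Fzd5* (5.91 ± 0.176) followed, and *Fzd2* (3.35 ± 0.289) came after them. The order of the 2 leading genes in KD-1 depends on the length used: with the longest transcript in place of all exons, *Fzd7* held 37.8% of the summed frizzled level and *Fzd10* 33.1%, against 32.4% and 36.6%. The summed frizzled level was 56.4 to 60.1 CPM per kb in Control (NT) and 77.0 to 80.0 in KD-1. *Fzd7* and *Fzd5* lie on chromosome 1, and what its chromosome-wide difference adds to this sum was not tested.

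**Figure D3:**
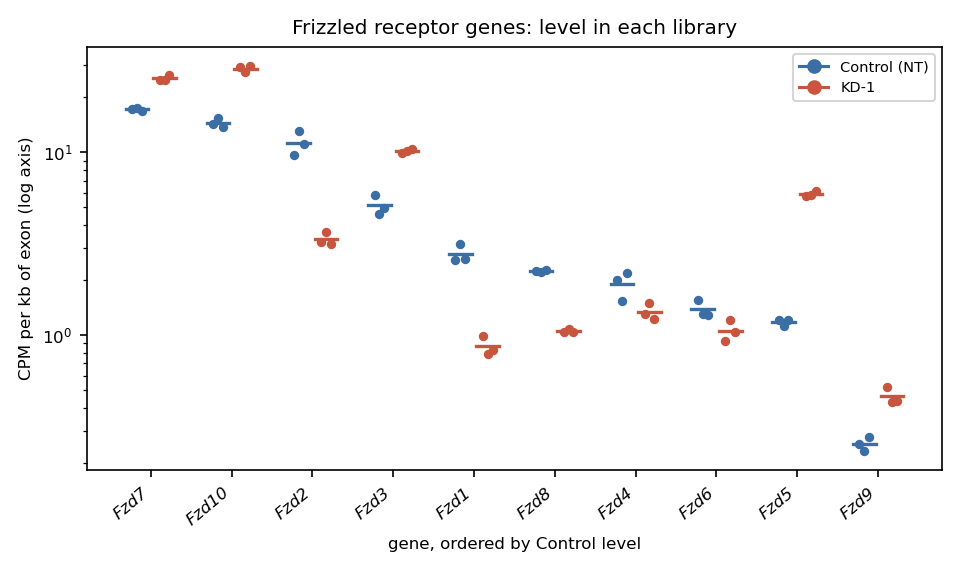
Level of the 10 frizzled receptor genes in each library, in CPM per kb of exon on a log axis (points, libraries; bars, group means of 3). Groups are apart for every gene; *Fzd5*, *Fzd3*, *Fzd10*, *Fzd7* and *Fzd9* are higher in KD-1 and the other 5 are lower, of which *Fzd4* and *Fzd6*, like *Fzd7*, did not reach the 1.5-fold threshold.

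Promoters of the receptor genes that moved apart were read for the letters that TCF/LEF proteins, the DNA-binding partners of β-catenin, are known to bind. Windows of 250 bases before the gene start came from RefSeq (GRCm38.p6) and were searched on both strands for CTTTGA and CTTTGT, which cannot overlap each other in one direction. A window was given for 34 of the 52 members, 37 windows in all. Either motif was in 10 of these 37 (27.0%) and in 9075 of all 32851 windows (27.6%), so the members carried it about as often as any promoter. It occurred for 5 of the 8 members called lower that had a window (*Frzb*, *Fzd1*, *Ror2*, *Wnt5b* and *Wnt8b*) and for 1 of the 9 called higher (*Ror1*), counts that were not tested. These counts are per gene, whereas the shares above are per window, and *Wnt5b* had several windows with a match in only a single one. A match is a description of letters and not a binding site. *Fzd1* (chr5:4758217-4758466, minus strand), lower in KD-1, and *Fzd5* (chr1:64737751-64738000, minus strand), higher in KD-1, are shown because they stand for the 2 directions. Capitals mark the motif letters, TCAAAG being CTTTGA read on the other strand.
Fzd1: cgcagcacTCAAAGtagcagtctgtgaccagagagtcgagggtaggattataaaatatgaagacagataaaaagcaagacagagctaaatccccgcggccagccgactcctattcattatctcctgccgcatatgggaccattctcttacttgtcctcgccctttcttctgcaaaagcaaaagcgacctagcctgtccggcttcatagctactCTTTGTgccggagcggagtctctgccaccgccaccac
Fzd5: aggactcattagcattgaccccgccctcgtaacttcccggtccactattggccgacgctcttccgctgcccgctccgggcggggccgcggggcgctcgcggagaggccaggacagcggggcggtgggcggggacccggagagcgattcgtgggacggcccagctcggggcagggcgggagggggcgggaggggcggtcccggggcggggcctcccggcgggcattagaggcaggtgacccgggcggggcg
The *Fzd1* window held matches 242 and 37 bases before the start and had 51.2% G and C, whereas the *Fzd5* window held none and had 76.4%.

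The co-receptors divided within each pair of relatives. *Lrp5* had 24.5, 22.7 and 33.8 CPM in Control (NT) against 9.28, 10.9 and 10.1 in KD-1, whereas *Lrp6* had 111, 78.3 and 100 CPM against 98.4, 104 and 104. *Lrp5* libraries were clear of each other between groups, while the *Lrp6* values of KD-1 lay inside the Control (NT) range. Both encode the canonical co-receptor, and the number of *Lrp6* reads per *Lrp5* read was 2.97 to 4.53 in Control (NT) and 9.56 to 10.6 in KD-1. The log2 fold change was -1.43 (SE 0.15, adjusted p = 5.6e-05, edgeR) for *Lrp5*, and the interval for *Lrp6* ran from -0.18 to 0.34, which leaves out a 1.5-fold change either way. Without the middle Control (NT) library, the lowest for *Lrp6*, the estimate was -0.05.

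*Ror1* and *Ror2*, which encode tyrosine kinase receptors for WNT5A, moved in opposite directions. *Ror1* had 10.2, 7.39 and 9.29 CPM in Control (NT) against 15.1, 15.7 and 16.4 in KD-1, and *Ror2* had 25.4, 33.4 and 27.8 against 14.3, 14.3 and 13.6. The log2 fold changes were 0.82 (SE 0.12, adjusted p = 3.8e-04, edgeR) and -1.05 (SE 0.10, adjusted p = 4.1e-05, edgeR). *Ror1* reads per *Ror2* read numbered 0.222 to 0.400 in Control (NT) and 1.06 to 1.21 in KD-1, so that *Ror2* had the more reads in one group and *Ror1* in the other. Per kb of exon, however, *Ror2* was still the higher in KD-1, 3.03 ± 0.0881 against 2.72 ± 0.116 CPM per kb (SD, n = 3). *Ryk*, an atypical WNT receptor, had 49.1 to 52.3 CPM in Control (NT) and 68.8 to 70.5 in KD-1 and a log2 fold change of 0.45 (SE 0.06, adjusted p = 1.4e-04, edgeR), under the fold threshold.

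Both R-spondin genes that were tested, of 4, were called lower in KD-1. *Rspo3*, the R-spondin of the posterior embryo and its vessels, had 11.1, 14.2 and 11.02 CPM in Control (NT) against 4.46, 4.23 and 5.43 in KD-1, which gave a log2 fold change of -1.36 (SE 0.15, adjusted p = 7.1e-05, edgeR). *Rspo1* had 2.89, 6.15 and 3.74 CPM against 1.55, 1.26 and 1.30, a log2 fold change of -1.65 (SE 0.28, adjusted p = 9.1e-04, edgeR). The middle Control (NT) library was the highest for *Rspo1*, and without it the log2 fold change was -1.31, still called. *Rspo2* and *Rspo4* had at most 22 and 9 reads in any library and are given with the untested members.

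The Lgr receptors, to which R-spondins bind, were not called lower. *Lgr4* was by far the highest, with 73.1, 69.0 and 64.3 CPM in Control (NT) against 93.5, 95.6 and 93.8 in KD-1. Its log2 fold change of 0.46 (SE 0.06, adjusted p = 2.5e-04, edgeR) was under the fold threshold. *Lgr5*, a marker of WNT-responsive stem cells, had 1.40, 0.946 and 1.33 CPM against 1.98, 2.04 and 2.20 and was called higher (0.76, SE 0.22, adjusted p = 0.014, edgeR). That call was lost without the deepest KD-1 library (0.73, adjusted p = 0.067). *Lgr6*, also on chromosome 1, had 0.199 to 0.386 CPM against 0.405 to 0.575, groups that did not overlap, and a log2 fold change of 0.72 with a 95% interval of -0.23 to 1.67.

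Among the secreted antagonists, 3 of the 4 tested SFRP genes were called higher. *Sfrp5*, with too few reads to be tested, lay lower in KD-1 and is given with the untested members. *Sfrp1* had 34.4, 37.3 and 34.8 CPM in Control (NT) against 58.8, 63.1 and 62.0 in KD-1, and *Sfrp2* had 17.4, 23.4 and 15.8 against 34.5, 32.8 and 31.6. Their log2 fold changes were near each other, 0.79 (SE 0.06) and 0.80 (SE 0.13). *Sfrp4* rose from 0.241, 1.57 and 0.812 CPM to 6.10, 5.49 and 5.24, a log2 fold change of 2.60 (SE 0.39, adjusted p = 4.4e-04, edgeR), and its lowest value was in the shallowest Control (NT) library, with 5 reads. *Frzb*, which encodes the related antagonist SFRP3, was the one tested gene of the class called lower. It had 8.92, 7.57 and 8.84 CPM against 5.603, 5.17 and 5.70 and stood close to the fold threshold (-0.62, SE 0.12, adjusted p = 0.0016, edgeR). Without the deepest Control (NT) library (-0.58) or the middle KD-1 library (-0.56), *Frzb* was under that threshold and not called. Per kb of exon, *Sfrp2* (14.3 ± 0.619 CPM per kb) stood above *Sfrp1* (12.7 ± 0.460) in KD-1 (SD, n = 3 each), whereas in Control (NT) their ranges overlapped. Summed over the class, the level was 60.6 to 70.4 CPM in Control (NT) and 105 to 107 in KD-1.

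*Notum*, the extracellular enzyme that removes the lipid from WNT proteins and is itself a WNT target, had 3.42, 5.35 and 3.88 CPM in Control (NT) against 22.5, 23.0 and 20.5 in KD-1. Its log2 fold change of 2.37 had a 95% interval of 2.03 to 2.71, and no group value came near the other group's range. Exons of *Notum* overlap the lncRNA gene *Notumos* on the other strand. Dickkopf genes were low in both groups. *Dkk3*, a divergent member of the family, had 0.338, 0.266 and 0.325 CPM against 2.38, 2.11 and 1.89, with no overlap between groups and a log2 fold change of 2.77 (95% interval 2.17 to 3.38). The study measured *Dkk1*, which encodes an antagonist of LRP5 and LRP6, and used its recombinant protein on gastruloids. In these libraries it had 1, 11 and 16 reads in Control (NT) against 11, 15 and 30 in KD-1, or 0.0482, 0.325 and 0.289 CPM against 0.262, 0.345 and 0.345. Control (NT) libraries other than the shallowest lay within the KD-1 range. The log2 fold change was 0.40 with a 95% interval of -0.82 to 1.62, and 0.06 without the shallowest Control (NT) library. The interval holds changes of more than 1.5-fold either way, so these few reads do not settle whether *Dkk1* differed.

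The window before *Dkk1* (chr19:30549497-30549746, minus strand, GRCm38.p6) is shown because it held more matches to the 2 motifs than that of any other member with a window.
Dkk1: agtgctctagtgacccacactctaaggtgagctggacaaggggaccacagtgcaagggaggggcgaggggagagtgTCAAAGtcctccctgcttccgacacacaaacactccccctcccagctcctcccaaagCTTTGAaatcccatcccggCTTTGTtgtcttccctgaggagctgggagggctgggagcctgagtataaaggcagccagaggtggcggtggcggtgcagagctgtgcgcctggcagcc
The 3 matches in capitals lie 174, 117 and 98 bases before the start.

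**Figure D4:**
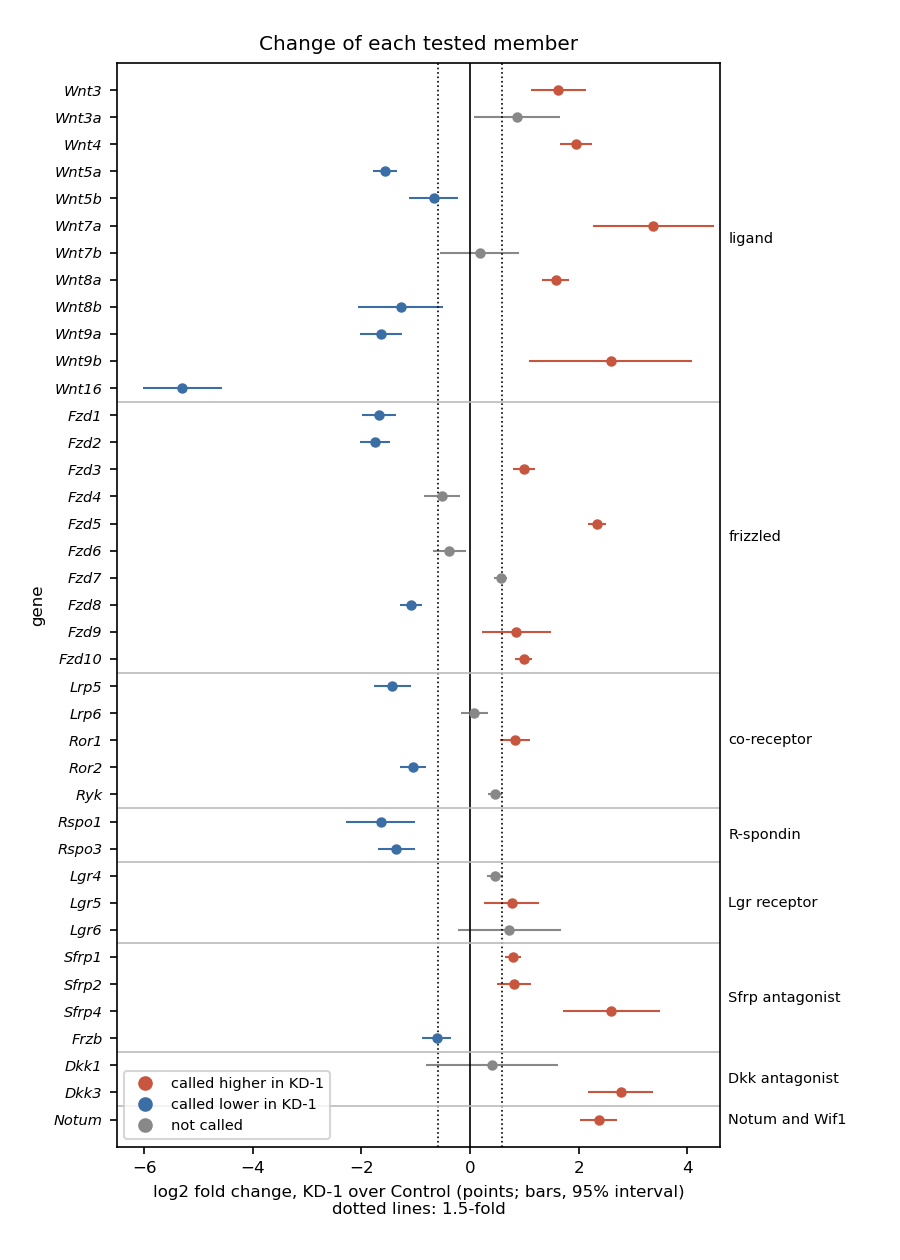
Log2 fold change of KD-1 over Control (NT) for the 39 tested members by class (points) with 95% intervals (bars), red for called higher, blue for called lower and grey for not called. Dotted lines mark a 1.5-fold change; *Wnt16* lies farthest left at -5.30 and *Wnt7a* farthest right at 3.37.

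The 13 members that were not tested had at most 22 reads in any library. They were *Wnt1*, *Wnt2*, *Wnt2b*, *Wnt6*, *Wnt10a*, *Wnt10b*, *Wnt11*, *Rspo2*, *Rspo4*, *Sfrp5*, *Dkk2*, *Dkk4* and *Wif1*. For 5 of them, *Wnt6*, *Wnt11*, *Rspo2*, *Rspo4* and *Sfrp5*, the groups did not overlap. *Rspo4* was the higher in KD-1 and the other 4 were the lower. How often groups are apart among all genes under the filter was not worked out, so this count is only a description. *Wnt11*, a ligand of gastrulation movements, had 11, 4 and 16 reads in Control (NT) against 1, 0 and 2 in KD-1. *Rspo4*, an R-spondin of nail formation, had 0, 0 and 1 reads against 9, 6 and 5, and *Wnt10b*, whose groups overlapped at 0, had 0, 11 and 15 against 0, 0 and 1. *Sfrp5*, an antagonist of anterior endoderm, had 0.193, 0.532 and 0.361 CPM against 0.0477, 0.0460 and 0.0460. DESeq2, which tested more genes, called *Wnt10b*, *Wnt11*, *Rspo2* and *Sfrp5* lower (31.9% of its 18745 genes were called), and edgeR with no filter on low counts called *Wnt10b*, *Wnt11* and *Sfrp5* lower and *Rspo4* higher (27.3% of 22192). *Wnt10a* had reads in a single Control (NT) library, 0.0902 CPM, and was at 0 in every KD-1 library.

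The rest of the pathway was read from 4 further lists. Proteins of WNT secretion and the cell surface had 2 genes called higher and 10 lower of 21 tested, 57.1% of them called, where 37.7% of all genes tested were (19.7% higher and 18.1% lower). *Gpc4*, a glypican, and *Znrf3*, a ligase that removes frizzled proteins, were the 2 higher genes, at log2 fold changes of 1.99 and 0.59. The 3 largest falls were those of *Cer1* (-7.93), a secreted antagonist of Nodal, BMP and WNT that is also transcribed in anterior presomitic mesoderm, *Adgra2* (-3.81), a WNT7 co-receptor, and *Gpc3* (-2.22). Neither *Porcn* (0.40), which adds the lipid to WNT proteins, nor *Wls* (-0.56), which carries them to the surface, reached the fold threshold.

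Planar cell polarity genes had 6 called higher and 1 lower of 11 tested (63.6% called). *Daam2* (2.24), *Celsr3* (1.75) and *Vangl1* (1.68) were the largest rises, and *Prickle1* (-2.38) was the fall. By contrast, 12 of the 14 genes of the destruction complex and Dishevelled were not called (14.3% called). Of those 12, 7 passed the adjusted p threshold and missed only the fold. *Tnks2* (0.61) was higher and *Dvl1* (-0.64) lower there, and *Ctnnb1*, the β-catenin gene, had a log2 fold change of -0.35 (SE 0.06), under the fold threshold. Both calls lay near 1.5-fold and each was lost in some settings.

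Nuclear effectors and feedback targets gave 3 higher and 7 lower of 19 tested (52.6% called). The share called higher was no larger than the 19.7% over all genes, while the share called lower was above their 18.1%. *Ccnd1* (1.24), *Sp5* (1.21) and *Sp8* (0.72) were higher. *Cdx1* (-4.22), a posterior homeobox gene, *Myc* (-2.35) and *Nkd2* (-1.88), a feedback inhibitor, were the largest falls. *Axin2*, the feedback target most used as a readout of canonical signalling, had a log2 fold change of 0.07 (SE 0.07, adjusted p = 0.42, edgeR). *Notum*, a WNT target among the members, was called higher, so the targets named here were called in both directions or, like *Axin2*, not called.

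**Figure D5:**
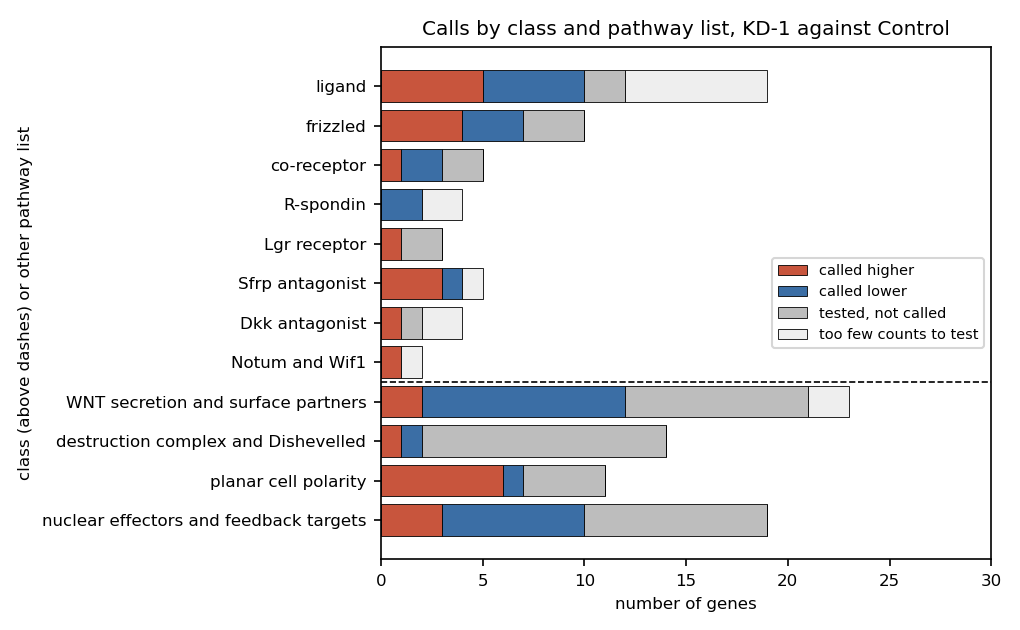
Number of genes called higher in KD-1 (red), called lower (blue), tested and not called (grey) and with too few counts to test (pale), for the 8 classes of members above the dashed line and the 4 other pathway lists below it. Ligands show 5 and 5, frizzled genes 4 and 3, and the secretion and surface list 2 and 10.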

How the data were processed

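RNA was measured in 3 Control (NT) and 3 KD-1 samples, grouped by the titles in their labels. The study prepared TruSeq paired-end libraries and quantified reads with Salmon 1.1 against a Gencode gene model (the submitters' processing notes also name bcl2fastq); the genome build is not given in the sources used here. The authors deposited estimated counts (expected counts) per Ensembl gene, in whole numbers and without normalization, which were used as given. Salmon assigns reads by probability, so counts of overlapping genes are uncertain: 28 of the 52 members have an exon overlapping a gene on the other strand, for 5 of them a protein-coding one. Column names give the group but not the replicate number of a sample. Every pair of libraries of a group differed by more than sampling noise (chi-square per degree of freedom of at least 4.85).

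Names, positions and exon lengths came from GENCODE vM39 (GRCm39), which matched 35222 of 35565 identifiers and all 52 members, and promoters from RefSeq (GRCm38.p6). Differential expression was tested with edgeR 4.0.16 in R 4.3.3 (filterByExpr defaults, 15110 genes kept, TMM, robust quasi-likelihood fit, condition as the only term, Benjamini-Hochberg adjustment). Calls required a fold change over 1.5 either way beside an adjusted p under 0.05. The common biological coefficient of variation was 10.6%. Levels per length are TMM-normalized CPM per kb of the union of exons. The alternatives were DESeq2 1.42.0, limma-voom 3.58.1, other normalizations, filters and fold thresholds, and each library left out in turn. All members are accounted for; of the other lists the 3 largest rises and falls called are named, others being chosen after their values were seen. Scripts were tested on simulated data. The members, lists and alternatives were chosen with earlier results of these data known. The tests assumed whole counts, and protein features were not analysed here.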

Additional observations from a re-analysis of the deposited data

How the results depend on the processing

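Of the 29 calls among members, 19 held in every setting that tested them and 24 held apart from an absolute log2 fold change over 1 and a test against a 1.5-fold change (glmTreat), and no called member changed sign. Among these 19 are *Wnt7a*, *Wnt9b*, *Wnt16*, *Sfrp4* and *Dkk3*, which a filter of 10 counts in each library left untested. Members called higher numbered 14 to 18 under other tests, normalizations and filters, 13 under glmTreat, and 9 at an absolute log2 fold change over 1, where 11 were lower. The 14 came with the filter of 10 counts in each library, which did not test *Wnt7a*, *Wnt9b*, *Sfrp4* and *Dkk3*. With a library left out, 14 to 17 were higher and 11 to 16 lower. Besides those named with their values above, *Frzb* lost its call with library size only and with a filter of 10 counts in each library, and *Wnt3a* gained one in those settings and with limma-voom. *Fzd7* gained one with DESeq2, RLE factors, library size only and that filter. With a library left out, the log2 fold change of *Lrp6* ran from -0.049 (without the middle Control (NT) library) to 0.19 and that of *Wnt7b* from -0.0041 (without the shallowest) to 0.46; the cause was not tested.

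Small counts in the other lists moved more. For the destruction complex and Dishevelled, 2 genes were higher with DESeq2, limma-voom, RLE factors, library size only and 10 counts in each library, 0 with glmTreat and at an absolute log2 fold change over 1, 3 with no fold threshold, and 0 to 2 with a library left out. Lower genes of that list numbered 0 with library size only, glmTreat and an absolute log2 fold change over 1, 6 with no fold threshold, and 0 to 2 with a library left out. The secretion and surface list had 1 higher gene with upper-quartile factors, glmTreat, or log2 fold changes beyond 1 either way, and 1 to 2 with a library left out. Polarity genes had 2 lower with upper-quartile factors, 3 with no fold threshold, and 1 to 2 with a library left out. Nuclear effectors had 1 higher with glmTreat. With the longest transcript as length, the share of the frizzled level was 34.9% for *Fzd7* and 22.7% for *Fzd10* in Control (NT), against 37.8% and 33.1% in KD-1. No paired analysis was possible because the columns do not carry the replicate numbers of the labels. Depth limits the 13 untested members, *Dkk1* and the other genes of a few reads, and groups of 3 libraries of 1 line each limit the comparison.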
